A study of Mus musculus with 79 samples.

Results

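The mice described here fell into a high and a low class by one transcript, H2-T22, a class I gene of the major histocompatibility complex (MHC) on chromosome 17. A library was placed in the high class when its H2-T22 level was 4 CPM (the count divided by the library total, times 1000000) or more, and in the low class otherwise. The mice were thus chosen by their H2-T22 counts. The rule selected 8 of 40 mice, the same 8 in the medial prefrontal cortex (mPFC) and the ventral hippocampus (vHipp), and left 31 low libraries of the mPFC and 32 of the vHipp. The question was which other genes, near H2-T22 or far from it, followed the split in both regions. Because H2-T22 counts chose the mice, its own values are a description and carry no test.

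All animals were male wild-type CD-1 (ICR) mice, an outbred stock, young adult, not siblings and housed in groups. Control (CTRL) mice and mice that had gone through a modified chronic social defeat stress (CSDS), in which they returned to their own group after each defeat, received a single injection of saline or ketamine, and tissue was taken about a week later. Bulk RNA sequencing gave 79 libraries, since the mPFC of 1 ketamine-treated CSDS mouse was not analyzed here. The high mice were unevenly spread: 5 were ketamine-treated CSDS mice, 2 were saline-treated CSDS mice, 1 was a saline-treated CTRL mouse, and none was a ketamine-treated CTRL mouse. The 4 groups were therefore a covariate of every comparison. The vHipp libraries were a second measurement of the same mice, not a second set of mice.

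Class I MHC molecules carry peptides to the cell surface for inspection by T cells and natural killer (NK) cells. H2-K1 and H2-D1 encode classical members, while the T region encodes non-classical ones. H2-T22 and its close relative H2-T10 are recognized by a subset of gamma delta T cells without a bound peptide, and H2-T23 encodes Qa-1, which presents a leader peptide to CD94/NKG2 receptors of NK cells. The T region is highly polymorphic between mouse strains.

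H2-T22 occupies chr17:36037128-36042747 on the minus strand of GRCm38, and its upstream neighbor Gm6034 begins on the opposite strand after 213 bases. That interval, chr17:36042748-36042960 of GRCm38.p6, is shown from RefSeq on the H2-T22 strand because it lies between a gene that was higher and a gene that was lower in the high mice. Capitals mark the motifs searched on both strands. One is TGACG, the core of the X2 box. Another is the Y box core CCAAT, which reads ATTGG on the opposite strand. The last is TTTCNNTTT, the core of an interferon-stimulated response element. These letters come from the C57BL/6J reference, and the CD-1 mice may differ.
H2-T22 upstream: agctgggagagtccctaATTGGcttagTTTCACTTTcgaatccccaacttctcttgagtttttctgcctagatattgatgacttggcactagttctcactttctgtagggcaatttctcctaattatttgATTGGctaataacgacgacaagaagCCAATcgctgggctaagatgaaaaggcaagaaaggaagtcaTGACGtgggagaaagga
The interval held TGACG once, the Y box core 3 times and TTTCNNTTT once. Over the 32851 windows of 250 bases upstream of RefSeq genes, 17.8% held TGACG, 33.8% held the Y box core and 9.37% held TTTCNNTTT, so each is common. The 250 bases upstream of H2-T23 held the Y box core and TTTCNNTTT and no TGACG. Part of that window is annotated as a first exon, and it is not shown.

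Reads of H2-T22 can be shared with its relatives, so a coding stretch is shown for the 3 genes, from GENCODE release M21. Capitals mark bases that differ from H2-T22.
H2-T22: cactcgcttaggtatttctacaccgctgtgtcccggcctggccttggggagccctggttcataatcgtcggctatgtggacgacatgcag
H2-T10: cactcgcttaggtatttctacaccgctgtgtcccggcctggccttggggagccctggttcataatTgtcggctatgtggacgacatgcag
H2-T23: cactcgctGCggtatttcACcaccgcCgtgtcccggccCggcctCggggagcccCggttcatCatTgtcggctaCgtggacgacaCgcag
Over this stretch of 90 bases H2-T10 differed at 1 base and H2-T23 at 12. Over the aligned coding sequence, H2-T10 was identical at 96.91% of 1134 bases and H2-T23 at 75.68% of 999 bases. Of all distinct 100-base windows in H2-T22 transcripts, 8.859% also occurred in another gene, and 6.923% of all of them occurred in H2-T10 (261 of the 334 shared windows). How the deposited counts treated reads that match more than one gene is not given in the sources used here, so the low H2-T22 values of low mice are uncertain to that extent.

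The H2-T22 levels left a wide gap at the threshold. In the mPFC the lowest high library had 8.61 CPM (mouse 6) and the highest low library 1.02 CPM (mouse 30). In the vHipp these libraries had 6.86 CPM (mouse 3) and 1.55 CPM (mouse 18). Thresholds of 2 and 6 CPM, and CPM scaled by TMM factors (which correct library totals for composition and are used from here on), selected the same 8 mice in each region. The counts behind the values were 160 to 278 reads in high and 2 to 35 in low mPFC libraries, and up to 331 and 4 to 46 in vHipp libraries.

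Within the high class H2-T22 varied little. The 8 mPFC libraries had 11.9 CPM in mouse 2, 10.2 in mouse 3, 8.65 in mouse 6, 8.86 in mouse 11, 9.09 in mouse 12, 9.77 in mouse 15, 9.21 in mouse 20 and 9.4 in mouse 22. In the vHipp the same mice had 8.0, 6.99, 7.78, 7.85, 7.89, 7.62, 9.4 and 9.22 CPM. The highest was thus 1.37 times the lowest in the mPFC and 1.34 times in the vHipp, and the order of the mice differed between the regions. Mean levels were 9.63 ± 1.03 CPM (SD, n = 8) against 0.674 ± 0.233 CPM (SD, n = 31) in the mPFC, and 8.09 ± 0.813 CPM (SD, n = 8) against 0.921 ± 0.235 CPM (SD, n = 32) in the vHipp. The single high CTRL mouse, mouse 22, lay within the range of the high CSDS mice in both regions.

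H2-T23, whose start lies 9.89 kb from that of H2-T22, was the gene most like it. In the mPFC the high mice had, in the order above, 9.74, 8.47, 7.02, 6.59, 9.19, 7.56, 7.73 and 7.86 CPM of H2-T23, and the low mice ranged from 0.828 to 2.65 CPM with a median of 1.82. In the vHipp the high mice had 2.85, 2.08, 1.67, 4.11, 2.07, 2.48, 2.63 and 2.98 CPM, and the low mice ranged from 0.471 to 2.12 CPM with a median of 0.932. The classes did not overlap in the mPFC, while in the vHipp 2 of 32 low libraries reached the lowest high library. H2-T23 was higher in high mice by a log2 fold change (LFC) of 2.2 (SE 0.148) in the mPFC and 1.40 (SE 0.205) in the vHipp, with adjusted p of 5.96e-14 and 0.000185 by edgeR's quasi-likelihood test. The H2-T23 difference between mPFC and vHipp was an LFC of 0.78 (SE 0.266) and did not pass the test (edgeR, adjusted p = 0.571). Per kilobase of exon the high mice held 2.78 CPM of H2-T23 and 2.82 CPM of H2-T22 in the mPFC, and 0.903 and 2.37 CPM in the vHipp. Every fold change in this report is high minus low, on the log2 scale, unless said otherwise.

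**Figure D1:**
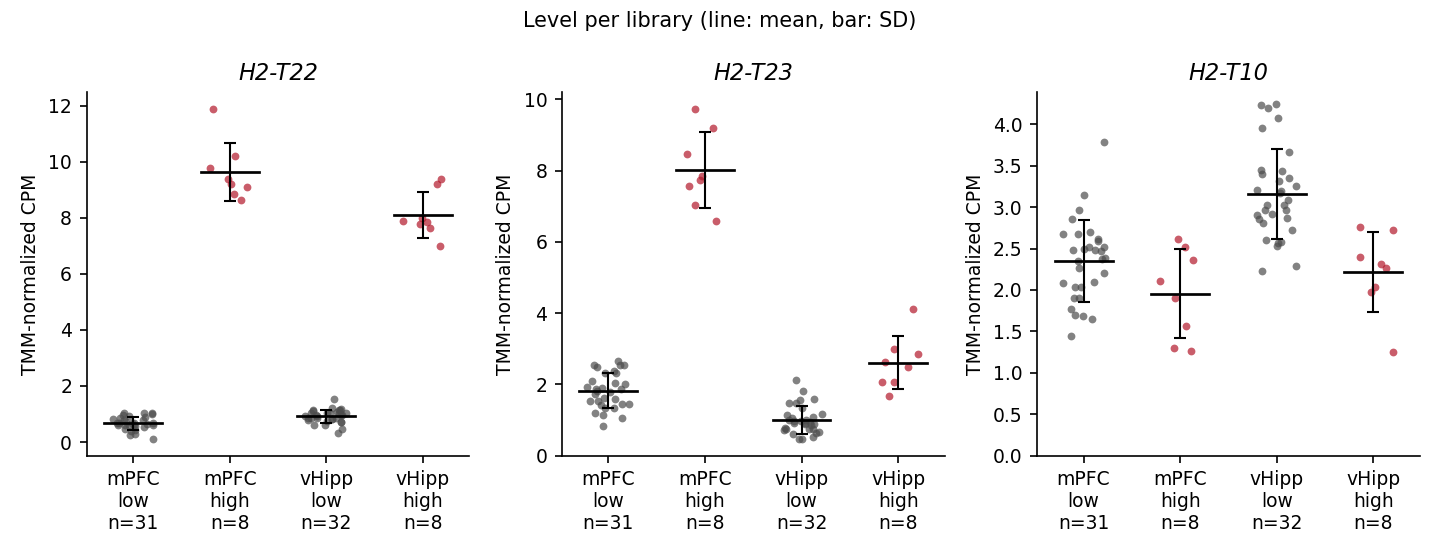
Levels of H2-T22, H2-T23 and H2-T10 in TMM-normalized CPM (vertical axes) for every library, by region and class (horizontal axes). Points are libraries, lines are means and bars are SDs. H2-T22 chose the classes. H2-T23 is separate in the mPFC and overlaps in 2 low libraries of the vHipp, and H2-T10 overlaps in both regions.

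H2-T10, the closest relative, did not pass the test in either region. The high mice had 1.26 to 2.62 CPM of H2-T10 (median 2.0) and the low mice 1.45 to 3.79 CPM (median 2.38) in the mPFC, and 1.25 to 2.76 CPM (median 2.29) against 2.23 to 4.24 CPM (median 3.06) in the vHipp. The ranges overlapped in both regions. Its LFC was -0.24 (SE 0.15, edgeR adjusted p = 0.791) in the mPFC and -0.52 (SE 0.125, edgeR adjusted p = 0.277) in the vHipp. The sum of H2-T22 and H2-T10 was 11.6 ± 1.44 CPM (SD, n = 8) in high and 3.02 ± 0.602 CPM (SD, n = 31) in low mPFC libraries, and 10.3 ± 0.944 CPM (SD, n = 8) against 4.08 ± 0.647 CPM (SD, n = 32) in the vHipp, values that H2-T22, which chose the classes, dominates. Whether reads were exchanged between these genes was not tested.

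Across all genes, 218 of 28993 differed between the classes in the mPFC (0.752%), 199 higher (0.686%) and 19 lower (0.0655%) in high mice. In the vHipp 5 of 28991 differed (0.0172%), 3 higher (0.0103%) and 2 lower (0.0069%). The median LFC over all genes tested was 0.006 and -0.002. The 218 and the 5 include H2-T22, which chose the mice, and the 218 also include Gm9573, H2-Ea-ps, Gm36378, Klrc2 and Krt6b. These passed the filter on low counts only through 1 class, so their calls are no support for a difference. Of the 27874 genes tested in both regions, 5 differed in both in the same direction (0.0179%), which were H2-T22, H2-T23, BC023719, A930015D03Rik and Padi4. These 5 were also all the genes that differed in the vHipp, and the rule fixes the call of H2-T22 among them. Classes that did not overlap at all were rarer still. H2-T22 and H2-T23 were the 2 genes of the mPFC above every low library (0.0069%) and BC023719 the 1 below (0.00345%), and in the vHipp H2-T22 was the 1 above (0.00345%) and BC023719 the 1 below (0.00345%). The rule that chose the mice fixed the separation of H2-T22. This leaves H2-T23 as the gene above in the mPFC and no gene above in the vHipp.

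BC023719 is annotated as an antisense transcript at chr17:36111426-36117121 on the plus strand, 68.7 kb from the H2-T22 start, and its span shares 1246 bases with H2-T10 on the other strand. In the mPFC the high mice had 6.54, 6.17, 7.08, 4.75, 5.1, 6.43, 7.39 and 6.81 CPM, and the low mice 8.98 to 16.0 CPM with a median of 11.9. In the vHipp the high mice had 5.84, 4.7, 5.32, 5.65, 5.66, 5.08, 6.42 and 5.82 CPM, and the low mice 9.33 to 15.1 CPM with a median of 11.2. Every high mouse lay below every low mouse in both regions. The low level was 1.94 times the high level in the mPFC (LFC -0.95, SE 0.084, edgeR adjusted p = 2.81e-10) and 2.08 times in the vHipp (LFC -1.06, SE 0.082, edgeR adjusted p = 4.6e-12). Among the high mice the SD of BC023719 was 14.7% of the mean in the mPFC and 9.44% in the vHipp.

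A930015D03Rik is also annotated as antisense, at chr17:35994453-36038435 on the plus strand. Its span covers all 3083 bases of H2-T23 and 1308 bases of H2-T22 on the other strand. The libraries were made with a stranded kit, but whether strand was used in counting is not given in the sources used here, so reads of the overlapping genes may not be told apart. The high mice had 2.95, 2.61, 2.78, 2.97, 2.82, 3.14, 3.3 and 3.13 CPM in the mPFC and 2.25, 2.83, 2.99, 1.98, 3.48, 2.48, 2.85 and 2.06 CPM in the vHipp. The low mice ranged from 3.01 to 5.5 CPM (median 4.26) and from 3.16 to 6.07 CPM (median 4.13). Only 1 low library of the mPFC and 4 of the vHipp fell to the highest high library or below. The fall was an LFC of -0.58 (SE 0.096, edgeR adjusted p = 0.00168) in the mPFC and -0.73 (SE 0.111, edgeR adjusted p = 0.000336) in the vHipp, the opposite direction to the H2-T22 and H2-T23 genes it overlaps.

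Padi4 was the only one of the 5 genes off chromosome 17, at chr4:140745865-140774236. It encodes peptidylarginine deiminase 4, which converts arginine to citrulline in proteins, histones included, and is best known from neutrophils. In the mPFC the high mice had 0, 3.31, 0, 2.43, 0, 2.85, 2.39 and 4.53 CPM, and in the vHipp 0, 2.56, 0, 2.71, 0, 3.69, 2.45 and 5.43 CPM. Mice 3, 11, 15, 20 and 22 were therefore at 2.39 CPM or more in both regions and mice 2, 6 and 12 at 0 in both. Among low mice, mouse 35 had 1.65 and 2.32 CPM, and no other was above 0.121 CPM in the mPFC or 0.0975 CPM in the vHipp. Padi4 thus had a high and a low level of its own that was the same in both regions of every mouse with both libraries, and matched the H2-T22 classes in 5 of 8 high mice and in all low mice but 1. Its LFC of 5.2 (SE 0.715, edgeR adjusted p = 4.81e-05) in the mPFC and 5.31 (SE 0.746, edgeR adjusted p = 9.37e-05) in the vHipp averages over these 2 levels. DESeq2 gave Padi4 no adjusted p in the mPFC and 0.681 in the vHipp.

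**Figure D2:**
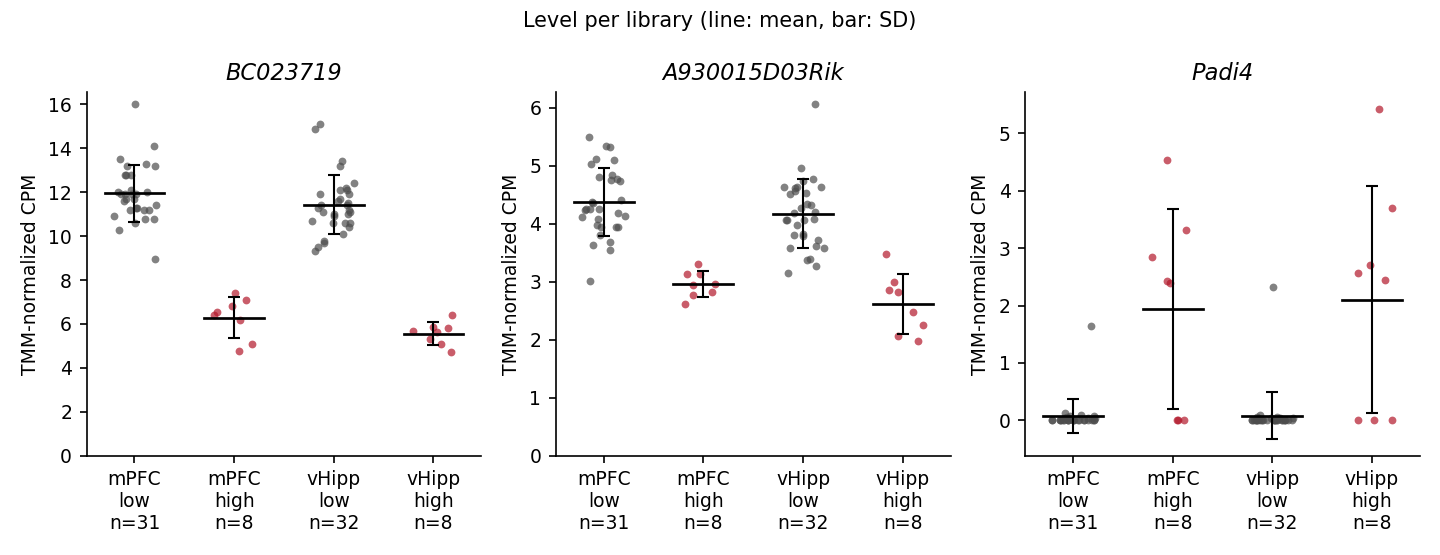
Levels of BC023719, A930015D03Rik and Padi4 in TMM-normalized CPM (vertical axes) for every library, by region and class (horizontal axes). Points are libraries, lines are means and bars are SDs. BC023719 is lower in every high mouse, A930015D03Rik is lower with slight overlap, and Padi4 is at 0 in 3 high mice and raised in 1 low mouse.

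The genes that differed lay more densely around H2-T22 than elsewhere. In the mPFC, 13 genes within 1 Mb differed (10.9% of those tested there), 5 of 191 at 1 to 5 Mb (2.62%), 7 of 551 at 5 to 20 Mb (1.27%), 4 of 511 on the rest of chromosome 17 (0.783%) and 189 of 27621 on other chromosomes (0.684%). In the vHipp, 4 genes within 1 Mb differed (3.51%), none on the rest of chromosome 17 and 1 on another chromosome. The counts of 13 and 4 include H2-T22, which chose the mice. Further mPFC genes to set aside are Gm9573 within 1 Mb, H2-Ea-ps at 1 to 5 Mb, and Gm36378, Klrc2 and Krt6b on other chromosomes. Each passed the filter on low counts only through the class where it was high. Without these genes and H2-T22 the mPFC counts were 11 within 1 Mb (9.24%), 4 at 1 to 5 Mb (2.09%) and 186 on other chromosomes (0.673%). Without H2-T22 the vHipp count was 3 (2.63%). The mPFC count within 1 Mb was 6 without mouse 2 and 5 without mouse 22, while that of the vHipp stayed at 4 with any 1 high mouse left out. The share with an unadjusted p under 0.05 fell with distance in both regions, from 25.2% through 17.3%, 10.2% and 9.0% to 7.61% in the mPFC and from 21.9% through 11.8%, 7.49% and 4.77% to 4.34% in the vHipp. Neighboring genes can share reads or transcripts and are not independent of each other.

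Both directions occurred within 1 Mb, 5 genes higher and 8 lower in the mPFC. Besides H2-T22 and H2-T23, the higher genes there were Gm9573, 2310061I04Rik and Mog. Gm9573 was detected in all 8 high mPFC libraries at 0.0524 to 0.318 CPM and was at 0 in 29 of 31 low ones, a level of few reads. It passed the filter on low counts only through the high libraries, so its call is no support for a difference, and it was too low in the vHipp to be tested. 2310061I04Rik was well expressed, with 37.8 ± 3.18 CPM (SD, n = 8) against 31.0 ± 2.49 CPM (SD, n = 31) in the mPFC (LFC 0.28, SE 0.055, edgeR adjusted p = 0.0113). In the vHipp its LFC was 0.17 (SE 0.058, edgeR adjusted p = 0.999, unadjusted p = 0.00589).

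The lower genes within 1 Mb were BC023719, A930015D03Rik, Gm6034, H2-T3, Gm8801, Gm20443, Gnl1, which encodes a GTP-binding protein, and Vars2, the mitochondrial valyl-tRNA synthetase. Gm6034, on the far side of the interval printed above, had 0.728 ± 0.308 CPM (SD, n = 8) in high and 1.49 ± 0.324 CPM (SD, n = 31) in low mPFC libraries (LFC -0.95, SE 0.179, edgeR adjusted p = 0.0094). H2-T3, which encodes the thymus leukemia antigen, was barely detected, at 0.0717 against 0.222 CPM on average (LFC -1.78, SE 0.434, edgeR adjusted p = 0.0342), and was called in 7 of the 18 other settings that gave it an adjusted p. Gnl1 and Vars2 differed little in size, with LFCs of -0.22 (SE 0.052, edgeR adjusted p = 0.0271) and -0.29 (SE 0.073, edgeR adjusted p = 0.039), and were called in 12 and 10 of the 20 other settings. Of the 13 genes within 1 Mb that differed in the mPFC, 12 were tested in the vHipp, and 11 had the same direction with an unadjusted p under 0.05 there. The exception was Mog, and the 12 include H2-T22, which chose the mice.

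At 1 to 5 Mb all 5 genes that differed in the mPFC were lower in high mice, and all 5 also had a negative LFC in the vHipp, where none passed the test. None of the 5 was called in the mPFC without mouse 2 or without mouse 22. Gm10501 had LFCs of -0.69 (SE 0.134, edgeR adjusted p = 0.0113) and -0.58 (SE 0.133, edgeR adjusted p = 0.204). Ring1, a ubiquitin ligase subunit of Polycomb complex 1, had LFCs of -0.38 (SE 0.093, edgeR adjusted p = 0.0358) and -0.35 (SE 0.105, edgeR adjusted p = 0.903). The other three were Stk19-ps1, H2-DMb2 and H2-Ea-ps.

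H2-Ea-ps, a class II alpha chain gene annotated as a polymorphic pseudogene 1700 kb from H2-T22, was barely detected. In the mPFC 6 of 8 high libraries were at 0 and the others were at 0.0427 and 0.0491 CPM, while the low libraries ran from 0 to 1.01 CPM with a median of 0.18. Of the 31 low libraries, 12 were no higher than the highest high one, so a low H2-Ea-ps level was not particular to the high mice. It passed the filter on low counts only through the low libraries, so its call is no support for a difference.

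**Figure D3:**
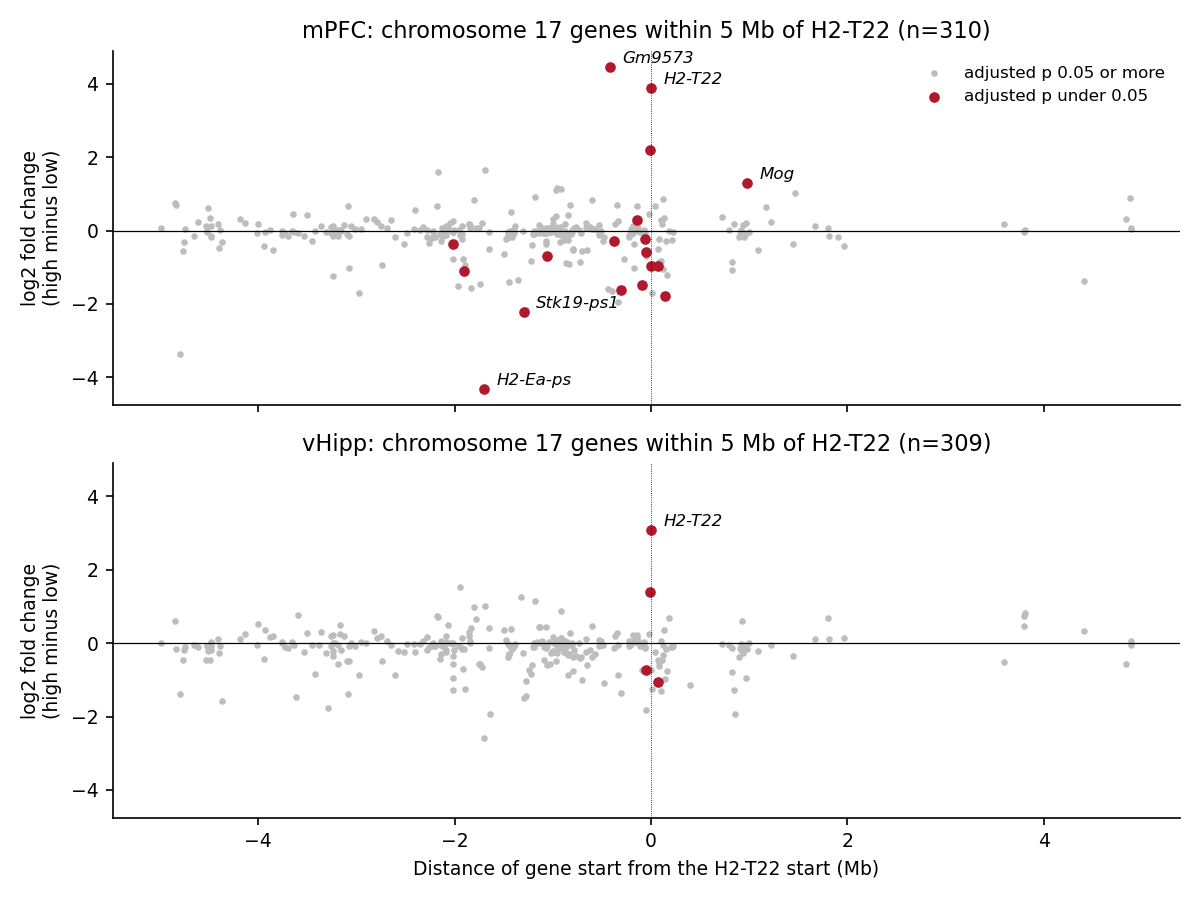
LFC, high minus low (vertical axes), of the genes tested within 5 Mb of H2-T22 against the distance of their start from the H2-T22 start in Mb (horizontal axis), for the mPFC (above) and the vHipp (below). Red points had an adjusted p under 0.05 (edgeR) and gray points did not. Red points cluster near distance 0, with 18 in the mPFC and 4 in the vHipp. They include H2-T22, which chose the mice, and in the mPFC Gm9573 and H2-Ea-ps, which passed the filter on low counts only through 1 class.

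Few other class I genes passed the test. Of the 33 class I MHC genes listed, 21 were expressed enough to be tested in each region. In the mPFC 2 were higher (H2-T22 and H2-T23) and 1 lower (H2-T3), against 0.686% and 0.0655% of all genes tested. In the vHipp the same 2 were higher, against 0.0103% of all genes tested, and none was lower. The rule fixes the call of H2-T22, which leaves H2-T23 as the higher member in each region. Median LFCs over the list were 0.06 and -0.25. H2-D1, the most abundant per length of the class I genes named here, had 51.1 ± 16.4 CPM (SD, n = 8) in high and 52.4 ± 13.0 CPM (SD, n = 31) in low mPFC libraries (LFC 0.07, SE 0.155, edgeR adjusted p = 0.988) and an LFC of -0.18 (SE 0.133, edgeR adjusted p = 0.999) in the vHipp. H2-K1 had LFCs of 0.21 (SE 0.194, edgeR adjusted p = 0.929) and 0.01 (SE 0.178, edgeR adjusted p = 0.999). H2-T24, which lies within the A930015D03Rik span on the opposite strand, had LFCs of 0.46 (SE 0.195, edgeR adjusted p = 0.491) and 0.26 (SE 0.225, edgeR adjusted p = 0.999). Per kilobase of exon, high mice held 2.82 CPM of H2-T22 in the mPFC, beside 4.85 CPM of H2-K1 and 19.8 CPM of H2-D1, and low mice held 0.197, 4.31 and 20.3 CPM.

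Of 16 genes that load peptides onto class I molecules or induce them, none passed the test in either region, with median LFCs of 0.03 and -0.00. B2m, the shared light chain, had 49.7 CPM on average in high and 46.9 CPM in low mPFC libraries, and Nlrc5, the class I transactivator, had 0.851 and 0.872 CPM. None of 25 interferon response genes passed, with median LFCs of 0.12 and -0.05. Markers of lymphocytes that bear receptors for these molecules summed to at most 3.95 CPM in any library, and none of the 10 and 8 tested passed. Of 11 class II MHC genes, 1 was lower in the mPFC, against 0.0655% of all genes tested, and none passed in the vHipp. It was H2-DMb2, a beta chain of the class II peptide exchange factor (LFC -1.10, SE 0.253, edgeR adjusted p = 0.026). In the vHipp H2-DMb2 had an LFC of -0.16 (SE 0.316, edgeR adjusted p = 0.999).

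Most of the genes that differed in the mPFC lay on other chromosomes, and markers of oligodendrocytes, the cells that form myelin, were among them. Of 6 oligodendrocyte markers, 5 were higher in high mice in the mPFC (Mag, Mobp, Cnp, Mog and Mbp), against 0.686% of all genes tested. None differed in the vHipp, where 0.0172% of all genes tested did. The median LFC over the list was 1.27 in the mPFC and -0.06 in the vHipp. Mbp, a major protein of compact myelin, had 1730 ± 963 CPM (SD, n = 8) against 791 ± 400 CPM (SD, n = 31) in the mPFC (LFC 1.25, SE 0.304, edgeR adjusted p = 0.0342). In the vHipp the high libraries had 542 to 1390 CPM and the low libraries 511 to 1880 CPM, an LFC of -0.09 (SE 0.19, edgeR adjusted p = 0.999). Sox10 and Olig2, transcription factors of the oligodendrocyte lineage, had LFCs of 0.85 (SE 0.179, edgeR adjusted p = 0.017) and 0.46 (SE 0.118, edgeR adjusted p = 0.0463) in the mPFC. In bulk tissue, more cells of a type and more RNA per cell cannot be told apart.

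The oligodendrocyte difference did not belong to all high mice. The 6 markers summed to 5110 CPM in mouse 2, 2810 in mouse 3, 6180 in mouse 6, 4280 in mouse 11, 1370 in mouse 12, 2140 in mouse 15, 1240 in mouse 20 and 6330 in mouse 22, against 573 to 3530 CPM with a median of 1330 in the low mPFC libraries. Mice 2, 6, 11 and 22 were above every low mouse, and the other four high mice lay within the low range. In the vHipp the high mice ranged from 1170 to 2920 CPM and the low mice up to 3810 CPM with a median of 2040. The count of 218 genes depended on single mice. It was 7 without mouse 2, 38 without mouse 6 and 6 without mouse 22, and fell to 57.3% of its size without mouse 11. With the oligodendrocyte level as a covariate, which is built from the markers themselves, the count was 6. Without mice 2, 6, 11 and 22, which leaves fewer high mice, it was 4. Both fits were chosen after seeing the data, and the part of oligodendrocyte content in the count was not tested.

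**Figure D4:**
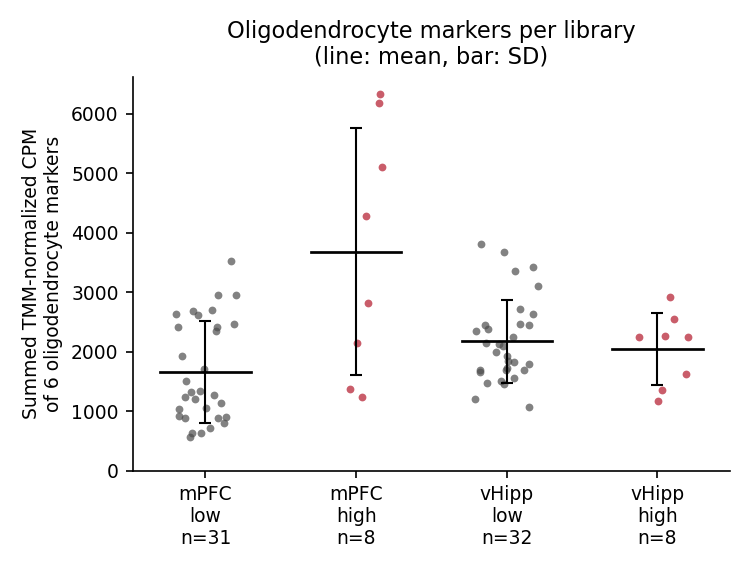
Summed TMM-normalized CPM of the 6 oligodendrocyte markers (vertical axis) in every library, by region and class (horizontal axis). Points are libraries, lines are means and bars are SDs. In the mPFC 4 of 8 high mice lie above every low mouse, and in the vHipp the classes overlap throughout.

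Of the far genes of the mPFC, Padi4 alone also passed the test in the vHipp. Of the 189 genes on other chromosomes, 183 were higher in high mice, with a median LFC of 0.75 over the 189. The 183 include Gm36378, Klrc2 and Krt6b, which passed the filter on low counts only through the high libraries. Calls of these genes are no support for a difference. In the vHipp 188 of the 189 were tested, 2 had an unadjusted p under 0.05, and their median LFC was 0.03. A test of the difference itself, of the LFC in the mPFC against that in the vHipp, called 0 of 31534 genes (0%) by edgeR, with a smallest adjusted p of 0.292 and 1520 genes at an unadjusted p under 0.05. With the mouse as a replicate block edgeR also called 0 genes, with 1772 at an unadjusted p under 0.05, so the far genes were not shown to differ between the regions. DESeq2 called 0 as well. For Mbp the LFC differed between the regions by 1.33 (SE 0.387, edgeR adjusted p = 0.446).

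**Figure D5:**
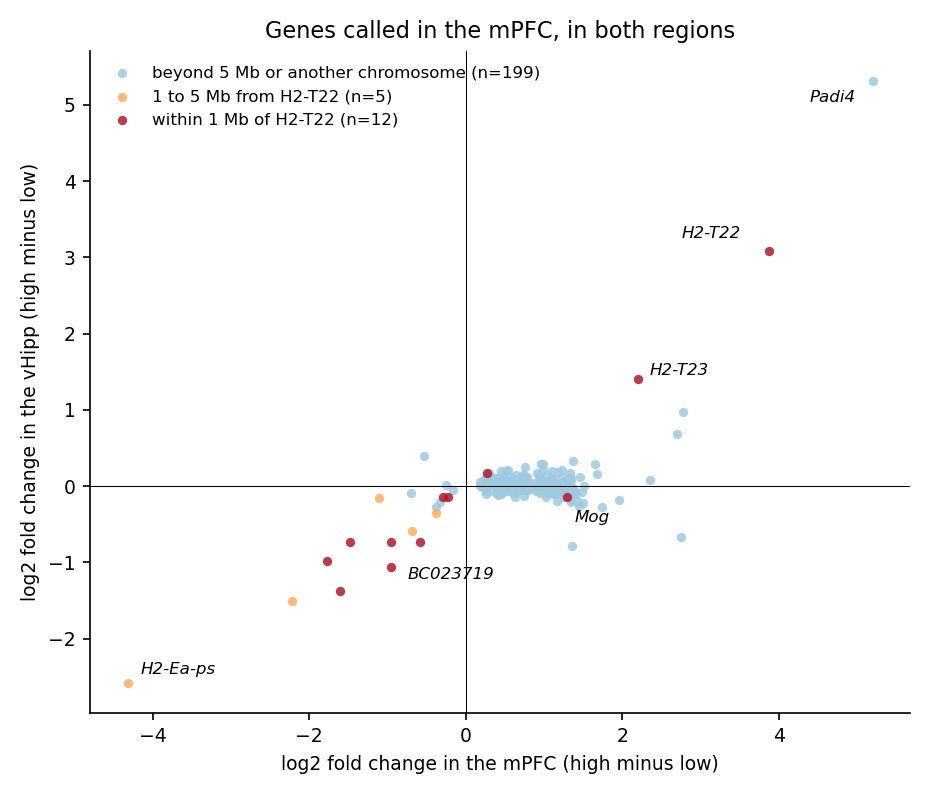
LFC in the vHipp (vertical axis) against LFC in the mPFC (horizontal axis), both high minus low, for the genes that differed in the mPFC and were tested in the vHipp. Colors give the distance from H2-T22, and labels name 6 of the genes. Genes within 1 Mb, except Mog, have the same sign in both regions, while far genes other than Padi4 spread around 0 in the vHipp.

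No marker of the other cell types passed the test. Astrocytes, microglia, neurons, endothelium, blood, choroid plexus, striatum, cortex and hippocampus had 0 of their 5 to 10 markers called in either region. Of the 56 markers on these lists, 7 had an unadjusted p under 0.05 in mPFC libraries, against 7.82% of all genes tested. The vHipp libraries gave 2 such markers, against 4.53% of all genes. The vHipp library of mouse 11, a high mouse, stood apart, with summed astrocyte markers of 11000 CPM and microglia markers of 739 CPM, against at most 6460 and 442 CPM in low libraries. Without mouse 11, edgeR called 6 genes in the vHipp, among them the same 5. The astrocyte and microglia content's part in the vHipp results was not tested beyond this.

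Immediate early genes, which neurons switch on with activity, had no member that passed the test. All 12 had a positive LFC in both regions, with medians of 0.32 and 0.21, against a positive LFC in 52.0% of all genes tested in mPFC libraries and 49.3% of those tested in vHipp libraries. An unadjusted p under 0.05 was reached by 6 of the 12 in the mPFC, against 7.82% of all genes, and by 3 in the vHipp, against 4.53%. Arc had 91.2 CPM on average in high and 59.6 CPM in low mPFC libraries (LFC 0.58, SE 0.263, edgeR adjusted p = 0.566), and 65.1 and 52.2 CPM in the vHipp (LFC 0.31, SE 0.102, edgeR adjusted p = 0.999).

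Across the libraries of each region, the levels most like H2-T22 were those of H2-T23, Padi4, 2310061I04Rik, Hmga1b and Snx31, by Pearson's r of log2 (CPM + 0.5) over 39 mPFC and 40 vHipp libraries. H2-T23 had r of 0.930 and 0.783 and Padi4 0.667 and 0.660. Hmga1b, on chromosome 11, had 0.466 and 0.473, and its LFC of 0.48 in each region (SE 0.144 and 0.135) did not pass the test (edgeR adjusted p = 0.135 and 0.714). The levels most opposed were those of BC023719, with r of -0.904 and -0.894. The points share the 8 high mice, and these values describe the split rather than test it.

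Narrower sets of mice gave fewer calls. Among the ketamine-treated CSDS mice, with 5 high against 4 low libraries in the mPFC and 5 against 5 in the vHipp, edgeR called 2 genes in each region, H2-T22 and H2-T23 in the mPFC and H2-T22 and BC023719 in the vHipp. Apart from H2-T22, whose call the rule fixes, this left H2-T23 and BC023719, each called in 1 region. In the region where the call was lost the difference was about as large as among all mice, with an LFC of 1.48 for H2-T23 in the vHipp (adjusted p = 0.499 by edgeR) and of -1.07 for BC023719 in the mPFC (adjusted p = 0.111 by edgeR). Within these mice BC023719 ranged from 4.75 to 7.39 CPM in high and from 10.9 to 16.0 CPM in low mPFC libraries. H2-T23 ranged from 1.67 to 4.11 CPM in high and from 0.751 to 1.06 CPM in low vHipp libraries. For BC023719 the gap follows from that among all mice. How many of all genes separate in so few libraries was not counted, so these ranges are only a description. Among all CSDS mice, H2-T22, H2-T23, BC023719 and Padi4 were called in both regions. A930015D03Rik was called in the mPFC with an LFC of -0.62 and missed the threshold in the vHipp with an LFC of -0.65. Leaving out any 1 of the high mice kept all 5 genes called in both regions. The high mice fell in 6 runs of 4 consecutive mouse numbers, at most 2 in a run, and with the run as a covariate the same 5 genes were called in both regions, while the mPFC count was 20.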

How the data were processed

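The authors made stranded mRNA libraries from mPFC and vHipp tissue and deposited raw counts, whole numbers per gene of GRCm38 and library, without normalization. The submitters' processing notes name bcl2fastq 2.20.0.422. Which programs aligned and counted the reads is not given in the sources used here. Library totals ran from 11726129 to 41767119 counts (median 19638060), so 1 CPM is 11.7 to 41.8 reads.

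Symbols and positions came from GENCODE M21 (55144 of 55471 identifiers matched). Region, group and mouse number came from the sample labels. The social box was not used here. Genes with more than 10 counts in total and detected in more than 3 libraries of a region were tested with edgeR 4.0.16 (R 4.3.3), TMM factors, quasi-likelihood, two-sided, Benjamini-Hochberg adjusted p under 0.05, all libraries of a region in 1 fit, with the 4 groups as covariate. Replicates are mice. The regions were fitted apart, and their difference was fitted over all libraries, also with the mouse as a block. Libraries of the same mouse correlated (median 0.278 over 39 mice and 15171 genes, against -0.00146 for different mice). No pair of libraries was alike within counting error. DESeq2 1.42.0 and limma 3.58.1 were alternatives. Fits were tested on simulated data.

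The mice, the gene lists and the tests were chosen with earlier results of these data known. The genes named are H2-T22, H2-T23, class I genes called or at 1 CPM or more, and genes called in both regions. Also named are the 5 called genes with the largest fold change in each region, list members called, and the 5 most like H2-T22. All others were chosen after their values were seen. Klrc2, an NK receptor gene, met the rule at a mean of 0.0481 CPM in high mice and was too low to describe further. It passed the filter on low counts only through the high libraries, so its call is no support for a difference.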

Additional observations from a re-analysis of the deposited data

Results flagged for a closer look

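In 80 sets of 8 high libraries (a named gene in a region), the highest or lowest library was compared with its nearest neighbor by Dixon's test. It stood apart in 6 sets, and chance gives about 4 at 1 in 20. In the mPFC, H2-T3 was at 0.27 CPM in mouse 11, where the next high library had 0.0636 CPM. In the vHipp, mouse 11 was lowest in 2310061I04Rik, at 29.4 CPM with the next at 35.6 CPM, highest in H2-K1, at 17.4 CPM with the next at 10.1 CPM, and highest in H2-Q4, at 6.45 CPM with the next at 4.06 CPM. This is also the vHipp library with the high astrocyte and microglia levels. H2-DMb2 was highest in mouse 20 in the vHipp, at 1.16 CPM with the next at 0.64 CPM. H2-Ea-ps was at 0.0598 CPM in mouse 6 in the vHipp and at 0 in the other 7 high libraries.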

How the results depend on the processing

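The 5 genes called in both regions were the same under 16 of 20 settings, including RLE factors, no filter, filterByExpr, limma-voom, the robust fit, no group covariate, the run as covariate, the oligodendrocyte level as covariate (chosen after seeing the data) and leaving out each high mouse. DESeq2 called 5 in both, 4 of them the same, with Stk19 in place of Padi4. The count in both regions was 1 among ketamine-treated CSDS mice, which was H2-T22 itself, and 3 without mice 2, 6, 11 and 22 (chosen after seeing the data), where H2-T23 missed the threshold in the vHipp at an LFC of 1.27 and A930015D03Rik in both regions at LFCs of -0.60 and -0.52. The vHipp count stayed between 4 and 7 apart from 2 among ketamine-treated CSDS mice, and leaving out 1 high mouse gave 5 to 6.

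The mPFC count was far less stable. It was about 1.3e+02 with the robust fit (58.7% of 218), 20 with the run as covariate, 5 in CSDS mice only, 2 in ketamine-treated CSDS mice only, 6 with the oligodendrocyte level as covariate and 4 without mice 2, 6, 11 and 22. Leaving out 1 high mouse gave 6 to 343, with the highest values of 343 and 331 without mice 15 and 20. With the oligodendrocyte level as covariate the LFCs of Mag, Mbp and Mog in the mPFC were -0.018, -0.013 and -0.064, since the covariate is built from these genes. The subsets hold fewer mice, and the other causes were not tested.

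The difference between regions, with the mouse as a replicate block, gave 0 genes, as did the fit without it, and no other comparison was fitted with the block. With 8 high mice of which 5 were ketamine-treated CSDS mice, the split and the stress and treatment groups are only partly separated. Genes under 1 CPM rest on few reads.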
